A study of Mus musculus with 32 samples.

Results

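The genes described here carry azacitidine into a cell, phosphorylate it, deaminate it, reduce its nucleotide to the deoxy form, or cleave deoxynucleoside triphosphates. They were chosen by name as 10 genes of the drug's uptake and metabolism, and all 10 were among the 21829 mouse genes of the deposited table. They were measured in EL08-1D2, a mouse stromal cell line derived from embryonic liver, in 16 libraries grown with azacitidine and 16 grown without it. The labels used here give neither dose nor duration of the treatment. Whether each library is a culture of its own is not said, so p-values measure the spread between these libraries, which may be technical. Unless another n is given, n is 16 libraries per group.

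Azacitidine is a ribonucleoside analogue of cytidine. Equilibrative nucleoside transporters let it cross the plasma membrane in either direction, and uridine-cytidine kinases add the first phosphate. Most of the drug then enters RNA, while ribonucleotide reductase converts part of its diphosphate into the deoxy form that enters DNA and traps DNA methyltransferases. Cytidine deaminase inactivates the nucleoside before it is phosphorylated. Deoxycytidine kinase activates decitabine, the deoxy analogue of the drug, rather than azacitidine itself.

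The deposited values were counts of unique molecular identifiers (UMIs), where each cDNA molecule is counted once. Libraries held 1226861 to 5039721 UMIs with azacitidine and 818619 to 3210801 without it. Levels are given as CPM, that is UMIs per 1e6 of the TMM-scaled library size, and 1 UMI stood for 0.21 to 0.783 CPM with azacitidine and 0.336 to 1.17 CPM without it. As a UMI stands for a molecule, CPM was not divided by transcript length. Fibroblast-type stromal genes were well detected, with Col1a1 at 805 ± 123 CPM (SD) with azacitidine and 1041 ± 176 CPM without it, and Pdgfrb, a receptor of mesenchymal cells, at 152 ± 20 and 169 ± 31.7 CPM. The common leukocyte gene Ptprc had 4 UMIs in all libraries with azacitidine and 1 in those without it, and the myeloid factor gene Spi1 had 1 and 0. The stromal marker Thy1 had 26 UMIs with azacitidine and 0 without it. Of 11 tested stromal markers 1 rose and 4 fell, and the list summed to 6924 to 11040 CPM with azacitidine and 9939 to 12960 CPM without it. Of 8 blood cell markers 2 could be tested and both rose, Cd53 and Cd68, and the list summed to 31.3 to 52.2 CPM with azacitidine and 18.9 to 35.0 CPM without it. Untested members of that list went both ways. Itgam averaged 4.5 CPM with azacitidine and 5.6 CPM without it, and Coro1a 1.7 and 2.5 CPM. Hba-a1 averaged 5.1 and 1.4 CPM, and Cd79a had 8 and 0 UMIs. Of 6 epithelial markers the 3 keratin genes Krt8, Krt18 and Krt19 could be tested and rose, and the list summed to 71.9 to 148 CPM with azacitidine and 2.92 to 9.90 CPM without it, while the epithelial adhesion gene Epcam had 1 UMI with azacitidine and 0 without it. The 4 endothelial markers summed to 0 to 2.97 CPM with azacitidine and 0 to 1.05 CPM without it. The part of these lists in the results below was not tested. Libraries that shared a run of 4 replicate numbers (1 to 4, 5 to 8, 9 to 12, 13 to 16) resembled each other: after removal of group means their mean correlation across tested genes was 0.33 with azacitidine and 0.08 without it, against -0.16 and -0.10 between runs. The labels do not say what a run shares. In addition 5 libraries, namely numbers 1, 2 and 4 with azacitidine and 1 and 2 without it, stood apart on the first principal component, with scores of 27.0 to 44.1 against -22.2 to 10.9 in the other 27.

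Of the 10 genes 1 fell with azacitidine, the transporter gene Slc29a1, and 0 rose (edgeR, adjusted p under 0.05 by Benjamini-Hochberg over 9344 tested genes). Among all tested genes 5.65% were called, 2.00% as lower and 3.65% as higher, so a single call among 10 genes is near the background. All 10 passed the filter on low counts and had at least 1 UMI in every library. Their log2 fold changes lay between -0.32 and 0.60 with a median of 0.05, and the median over all tested genes was 0.00. At an unadjusted p under 0.05 there were 3 genes, Slc29a1, Uck2 and Samhd1, and 1600 among all tested genes. The groups overlapped for each of the 10 genes, while 0.289% of all tested genes had groups without overlap.

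**Figure D1:**
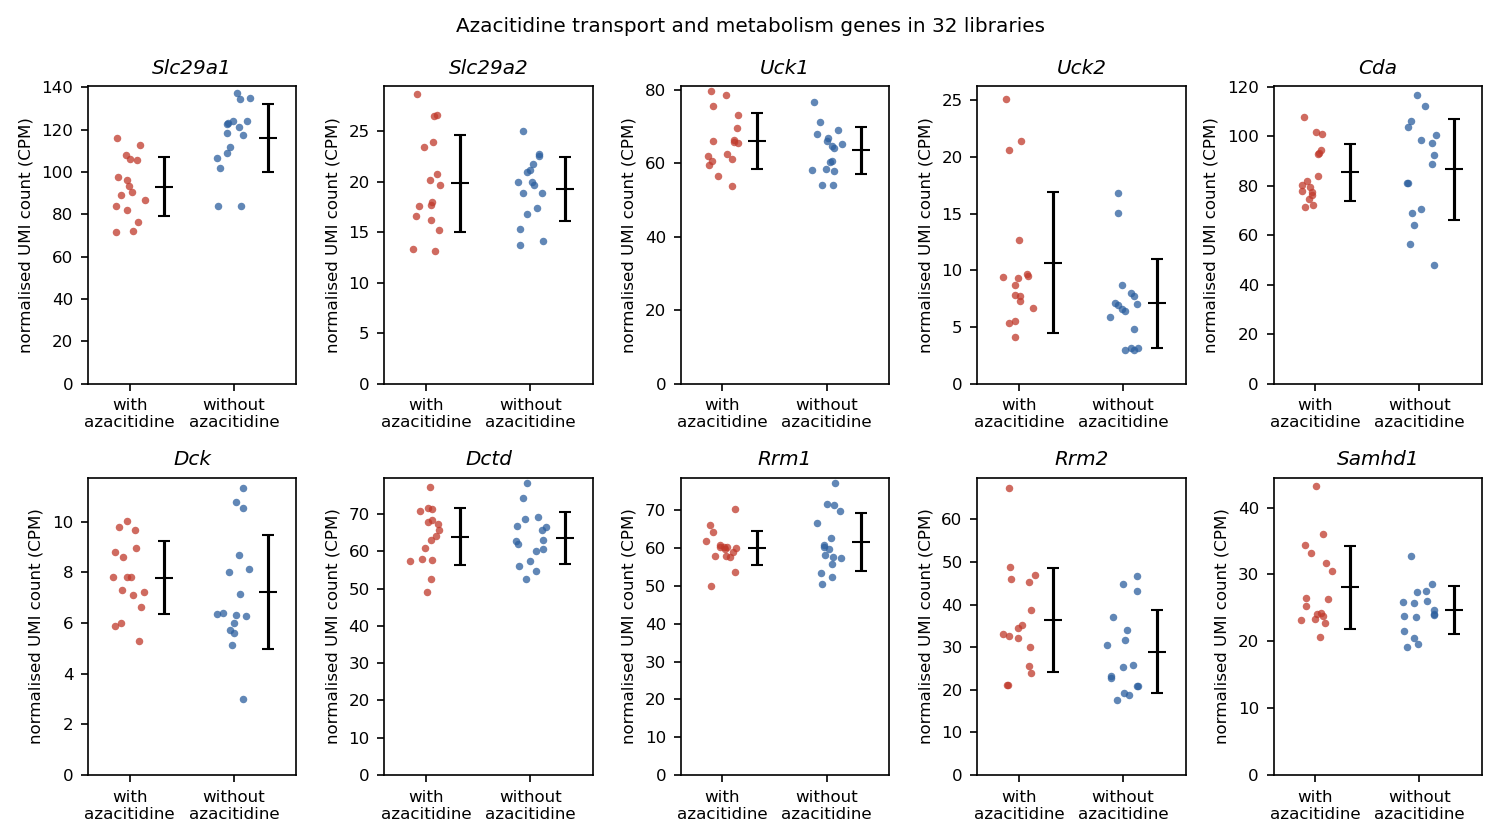
Each panel gives the CPM of 1 of the 10 genes on a linear axis that starts at 0, with the 16 libraries grown with azacitidine left of the 16 grown without it; a point is a library, and the bar with whiskers gives the mean with 1 SD. Slc29a1 lies lower with azacitidine at a mean of 93.1 against 116 CPM, and the groups overlap in every panel.

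Slc29a1 encodes ENT1, an equilibrative nucleoside transporter of the plasma membrane (ENSMUSG00000023942, chromosome 17, 45585200 to 45599606, minus strand, mm10). Its level was 71.7 CPM in the lowest, 92.1 in the median and 116 in the highest library with azacitidine, against 84.0, 120 and 137 CPM without it. All 16 libraries with azacitidine lay below the median of those without it, and 5 lay below the lowest of them. The mean was 93.1 ± 14.0 CPM with azacitidine and 116 ± 16.0 CPM without it (SD), from 3438 and 3115 UMIs. The log2 fold change was -0.32 (SE 0.07, 95% interval -0.47 to -0.17), a level 0.80 times as high (edgeR, adjusted p = 0.00383). By size of p it stood at place 234 of the tested genes.

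The decrease of Slc29a1 had the same direction in every run of replicate numbers. In numbers 5 to 8 it averaged 89.8 ± 12.2 CPM with azacitidine and 122 ± 11.7 CPM without it, and in numbers 9 to 12 it averaged 109 ± 4.9 and 126 ± 8.43 CPM (SD, n = 4 libraries each). The libraries of the groups did not overlap in these runs, where that held for 11.6% and 6.09% of all tested genes. In numbers 1 to 4 the means were 94.1 ± 12.8 CPM with azacitidine and 121 ± 10.6 CPM without it, and in numbers 13 to 16 they were 79.4 ± 6.46 and 95.4 ± 13.7 CPM, with overlap. A difference of the drug effect between the runs was not shown (edgeR interaction test, adjusted p = 0.729, where 3.02% of all genes were called). The call was lost, at log2 fold changes of similar size, when every library was thinned to the smallest (-0.27, edgeR, adjusted p = 0.099), when the 4 libraries of a run and group were summed (-0.33, edgeR, adjusted p = 0.55), and with an estimated correlation within runs (-0.34, limma-voom, adjusted p = 0.078). Sums with a term for the run kept it (-0.34, edgeR, adjusted p = 0.0099). Scaling by spike-in RNA, which raised the median of all genes by 0.31, gave Slc29a1 a log2 fold change of -0.05 (SE 0.20, edgeR, adjusted p = 0.84). The decrease was thus shown relative to the other genes and not against the spike-in RNA. With that SE, the spike-in fit cannot decide whether the level fell by the size seen with TMM scaling.

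The promoter window of Slc29a1 is shown because it belongs to the called gene and because CpG dinucleotides, set in capitals, are where the drug's target enzymes methylate DNA. It covers 250 bases before and 50 after a RefSeq start 12 bases from the start of the GENCODE gene (GRCm38.p6, which is mm10, chr17:45599569-45599868, minus strand, 1 of 8 RefSeq windows of this gene). It holds 16 CpGs, more than 67.0% of 32851 RefSeq promoter windows of mouse genes, whose median is 7. The windows of the 10 genes held 9 to 40 CpGs with a median of 19. No methylation was measured here.
Slc29a1: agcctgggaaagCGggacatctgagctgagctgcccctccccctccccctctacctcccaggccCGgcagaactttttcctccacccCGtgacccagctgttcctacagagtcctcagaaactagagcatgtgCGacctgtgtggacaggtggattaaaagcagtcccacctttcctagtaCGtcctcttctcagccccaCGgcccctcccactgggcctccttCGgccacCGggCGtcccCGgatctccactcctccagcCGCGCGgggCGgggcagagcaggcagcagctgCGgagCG

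Slc29a2 encodes ENT2, a related transporter of nucleosides and nucleobases (chromosome 19, 5023860 to 5031972). It stood at 13.2, 18.8 and 28.7 CPM in the lowest, median and highest library with azacitidine, against 13.7, 19.8 and 24.98 CPM without it. Its log2 fold change of 0.04 (SE 0.11, 95% interval -0.18 to 0.25) did not pass the test (edgeR, adjusted p = 0.925), and the runs differed in sign, as the mean difference in log2 CPM was -0.32 in numbers 13 to 16 and 0.355 in numbers 5 to 8. A dependence of the drug effect on the run was not shown for Slc29a2 (edgeR interaction test, p = 0.125, adjusted p = 0.501). Within libraries Slc29a1 exceeded Slc29a2 by 2.25 ± 0.33 on the log2 CPM scale with azacitidine and by 2.60 ± 0.29 without it (SD). Slc29a3, a carrier of intracellular membranes, stood at 23.0 ± 5.0 CPM with azacitidine and 26.8 ± 5.79 CPM without it (edgeR, adjusted p = 0.311). The concentrative carriers Slc28a1, Slc28a2 and Slc28a3 had 1, 4 and 1 UMIs in the 16 libraries with azacitidine and 0 each in those without it. Of 4 genes of nucleotide exporters, the ATP-driven pumps Abcc4, Abcc5, Abcc10 and Abcg2, edgeR called 0, and 0 had p under 0.05 before adjustment; their log2 fold changes lay between -0.14 and 0.02. Neither DESeq2 nor limma-voom called any (0 each).

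The first phosphate is added by the kinases encoded by Uck1 and Uck2, and Uck1 was the more abundant transcript in every library. Uck1 (chromosome 2, 32255002 to 32260159) ran from 53.7 over a median of 65.6 to 79.7 CPM with azacitidine and from 53.9 over 64.3 to 76.7 CPM without it. The groups covered nearly the same range, and the log2 fold change of 0.06 (SE 0.06, 95% interval -0.06 to 0.18) did not pass the test (edgeR, adjusted p = 0.665). The differences in the 4 runs lay between 0.03 and 0.07. Exons of Uck1 overlap those of Pomt1 on the opposite strand, and since strand is not stated for the counts, reads of the pair may be mixed; Pomt1 had 937 UMIs with azacitidine and 639 without it, at a log2 fold change of 0.08.

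Uck2 encodes the kinase that phosphorylates uridine and cytidine with the higher efficiency in the human enzymes (chromosome 1, 167222883 to 167285320). Its level was 4.10, 8.98 and 25.1 CPM in the lowest, median and highest library with azacitidine, against 2.92, 6.77 and 16.8 CPM without it, from 487 and 214 UMIs in all. The log2 fold change was 0.60 (SE 0.26, 95% interval 0.08 to 1.12) and did not pass the test (edgeR, p = 0.0257, adjusted p = 0.202). Uck2 was the most uneven of the 10 genes, with a coefficient of variation of 58.3% with azacitidine and 55.9% without it. The high values sat in the 5 libraries that stood apart, which held 20.6, 21.4 and 25.1 CPM with azacitidine and 15.0 and 16.8 CPM without it. The other 13 libraries with azacitidine averaged 7.97 ± 2.27 CPM and the other 14 without it 5.81 ± 2.03 CPM (SD). These 5 libraries were also deep, with 2455232 to 5039721 UMIs, whereas number 7 with azacitidine had 4218313 UMIs and a Uck2 level of 9.49 CPM. Without the 5 libraries the log2 fold change was 0.43 (SE 0.18, edgeR, adjusted p = 0.15). Uck2 was called as higher with a term for the run (log2 fold change 0.53, edgeR, adjusted p = 0.016) and with spike-in scaling (0.95, adjusted p = 0.0048), but not when sums over runs were fitted with the run term (0.51, adjusted p = 0.080). Exons of Gm2453, a long noncoding RNA gene of the opposite strand that was not analysed here, overlap those of Uck2. In the 27 other libraries Uck2 and log2 total UMIs gave r = 0.31 and rho = 0.35 after removal of group means (permutation p = 0.12 and 0.082, adjusted p = 0.50 and 0.43). After removal of the means of run and group r was 0.48 (permutation p = 0.051, not adjusted).

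**Figure D2:**
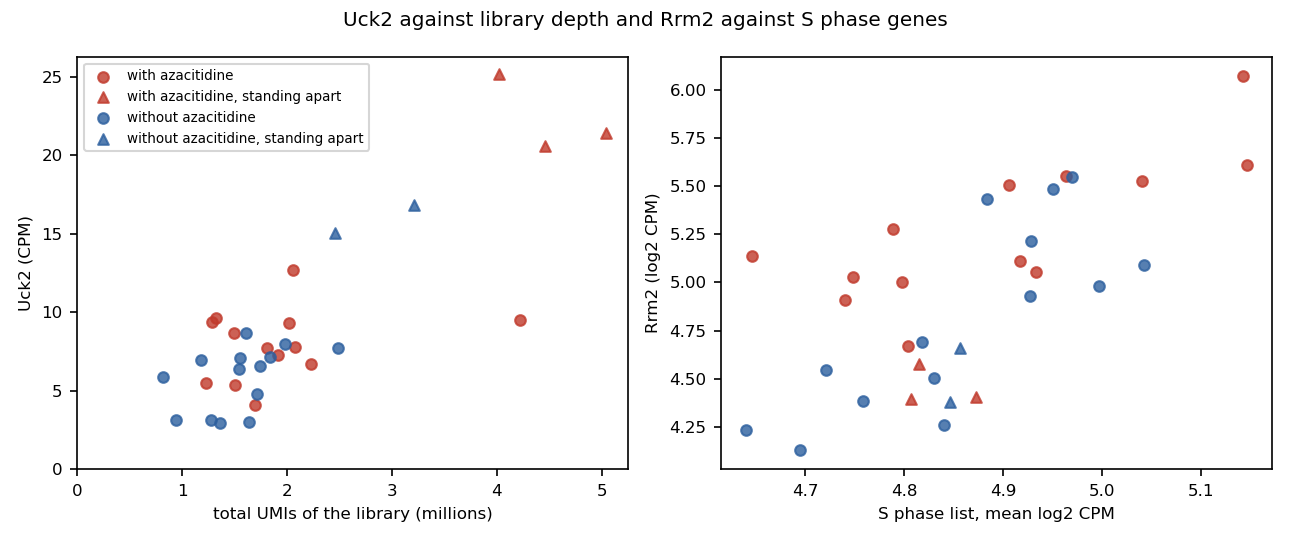
Left, Uck2 (CPM) against the total UMIs of each library, in units of 1e6; right, Rrm2 (log2 CPM) against the mean log2 CPM of the S phase list; points are libraries and triangles mark the 5 that stand apart. Those 5 hold the highest Uck2 levels, between 15.0 and 25.1 CPM, and Rrm2 is higher where the S phase list is higher.

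Dck, deoxycytidine kinase (chromosome 5, 88764996 to 88783281), was the lowest of the 10 genes beside Uck2. It had 5.29, 7.81 and 10.0 CPM in the lowest, median and highest library with azacitidine and 3.01, 6.38 and 11.3 CPM without it, with 9 to 33 and 6 to 19 UMIs per library. Its log2 fold change of 0.11 (SE 0.16, 95% interval -0.20 to 0.42) did not pass the test (edgeR, adjusted p = 0.791), and the interval spans factors of 0.869 to 1.34. The runs differed in sign: Dck averaged 7.91 ± 0.646 CPM with azacitidine and 5.95 ± 0.58 CPM without it in numbers 5 to 8, and 8.72 ± 1.12 and 9.48 ± 1.92 CPM in numbers 13 to 16 (SD, n = 4 libraries each). A dependence of the drug effect on the run was not shown for Dck (edgeR interaction test, p = 0.482, adjusted p = 0.762). Among 11 tested genes of other nucleoside and nucleotide kinases edgeR called 0, and 0 had p under 0.05 before adjustment; their log2 fold changes lay between -0.09 and 0.07. Neither DESeq2 nor limma-voom called any (0 each). Nme1, a nucleoside diphosphate kinase, averaged 680 ± 61.7 CPM with azacitidine and 681 ± 39 CPM without it. Cmpk2, a mitochondrial nucleotide kinase induced by interferon, was below the filter with 249 UMIs in the 16 libraries with azacitidine and 53 in those without it. When no filter was applied it rose by 1.67 (SE 0.28) on the log2 scale (edgeR, adjusted p = 4e-05, with 3.94% of genes called). With sums over runs it had 1.65 and was not called (edgeR, adjusted p = 0.076). The same sums, fitted with a term for the run, gave 1.64 and a call (edgeR, adjusted p = 0.021). In numbers 1 to 4 Cmpk2 averaged 9.11 ± 1.92 CPM with azacitidine and 1.17 ± 1.04 CPM without it, from 135 and 10 UMIs. In numbers 5 to 8 it averaged 3.26 ± 0.61 and 2.71 ± 2.27 CPM, from 31 and 16 UMIs (SD, n = 4 libraries each). Being below the filter, it has no value from the interaction test of run and drug.

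Cda, cytidine deaminase (chromosome 4, 138338424 to 138367992), was well expressed and did not pass the test as a whole. It had 71.2, 81.1 and 108 CPM in the lowest, median and highest library with azacitidine, against 48.0, 90.7 and 117 CPM without it. The libraries with azacitidine lay inside the range of the others, and the log2 fold change was -0.03 (SE 0.10, 95% interval -0.23 to 0.16, edgeR, adjusted p = 0.924). The runs differed in direction. In numbers 5 to 8 Cda averaged 79.8 ± 9.05 CPM with azacitidine and 59.7 ± 9.73 CPM without it, without overlap (SD, n = 4 libraries each). In numbers 13 to 16 it averaged 80.7 ± 9.89 CPM with azacitidine and 100 ± 2.85 CPM without it, again without overlap. All tested genes lacked overlap at 11.6% in the first of these runs and 9.43% in the other. The levels with azacitidine were nearly the same in these runs, and those without it differed. The interaction of run and drug did not pass the test (edgeR, p = 0.00392, adjusted p = 0.0928). Thinning and spike-in scaling turned the sign of the log2 fold change, to 0.03 and 0.28.

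**Figure D3:**
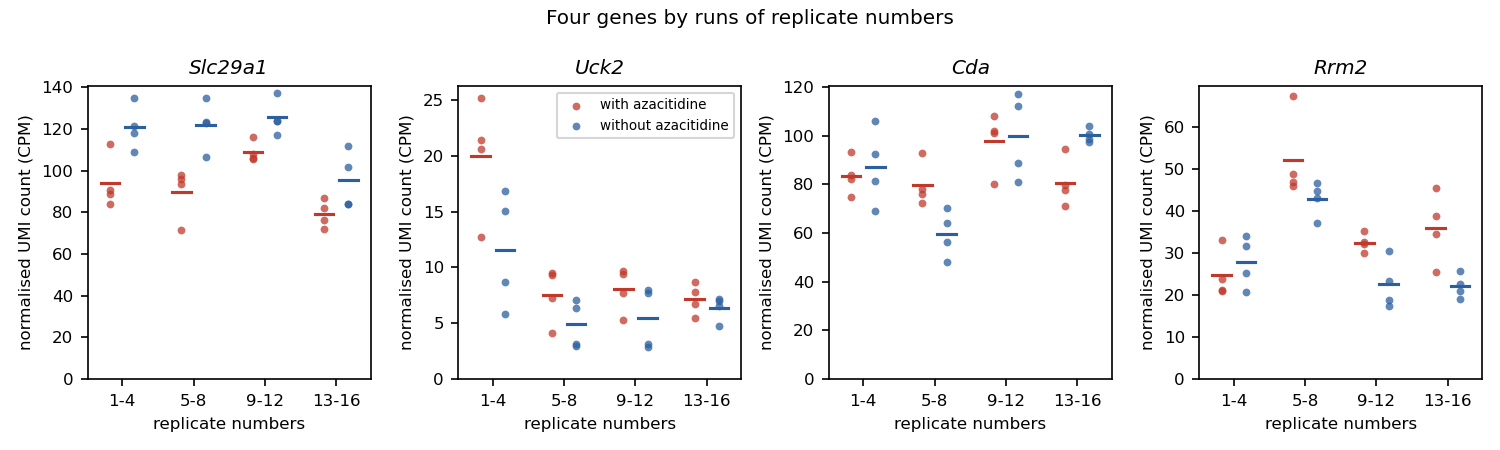
CPM of 4 genes, on linear axes that start at 0, in runs of 4 replicate numbers; points are libraries, lines are means of 4 libraries. Slc29a1 is lower with azacitidine in each run, Uck2 is highest in numbers 1 to 4, and Cda lies higher with azacitidine in numbers 5 to 8 and lower in numbers 13 to 16.

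Dctd, which deaminates dCMP and its analogues (chromosome 8, 48099092 to 48153233), stayed within a narrow range. The lowest, median and highest library held 49.0, 64.9 and 77.3 CPM with azacitidine and 52.5, 62.9 and 78.4 CPM without it. The log2 fold change was 0.01 (SE 0.06, 95% interval -0.12 to 0.13, edgeR, adjusted p = 0.981), which leaves room for changes between factors of 0.922 and 1.10. Among 11 tested genes of nucleotidases and dNTP hydrolases edgeR called 0, and 3 had p under 0.05 before adjustment. Neither DESeq2 nor limma-voom called any (0 each). The 3 were Nt5c, a cytosolic 5'-nucleotidase gene, with a log2 fold change of 0.18 (edgeR, adjusted p = 0.0854), the pyrimidine nucleotidase gene Nt5c3 with 0.21 (0.121) and the dCTP pyrophosphatase gene Dctpp1 with -0.19 (0.174). They were named after their values were seen.

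Ribonucleotide reductase joins the large subunit encoded by Rrm1 with a small subunit, encoded by Rrm2 in S phase and by Rrm2b, a p53 target, outside it. Rrm1 (chromosome 7, 102441695 to 102469771) was the steadiest of the 10 genes with azacitidine, with a coefficient of variation of 7.69%, against 12.6% without it. Its lowest, median and highest values were 50, 60.2 and 70.2 CPM with azacitidine and 50.5, 60.0 and 77.3 CPM without it. Its difference on the log2 scale was -0.04 (SE 0.06, 95% interval -0.16 to 0.08, edgeR, adjusted p = 0.797), and its sign turned with spike-in scaling (0.28). Rrm2 (chromosome 12, 24708241 to 24714146) had 21.1, 33.9 and 67.3 CPM in the lowest, median and highest library with azacitidine and 17.5, 25.6 and 46.7 CPM without it. Of the libraries with azacitidine 12 lay above the median of the others, but the log2 fold change of 0.33 (SE 0.16, 95% interval -0.002 to 0.66) did not pass the test (edgeR, p = 0.051, adjusted p = 0.295). The runs differed in sign: Rrm2 averaged 24.8 ± 5.73 CPM with azacitidine and 28.0 ± 6.03 CPM without it in numbers 1 to 4, and 36.1 ± 8.34 and 22.1 ± 2.86 CPM in numbers 13 to 16 (SD, n = 4 libraries each). The interaction of run and drug did not pass the test (edgeR, p = 0.0134, adjusted p = 0.194). With a term for the run Rrm2 was called as higher (log2 fold change 0.31, edgeR, adjusted p = 0.041), but not when sums over runs were fitted with that term (0.31, adjusted p = 0.25). Rrm2b stood at 10.5 ± 3.39 CPM with azacitidine and 11.1 ± 2.67 CPM without it (edgeR, adjusted p = 0.737), and spike-in scaling turned the sign of its difference.

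Rrm2 moved with genes of DNA replication across libraries. In the 27 libraries other than the 5 that stood apart, after removal of group means, its log2 CPM correlated with the mean log2 CPM of 24 tested S phase genes (Pearson r = 0.76, Spearman rho = 0.78, each with p = 1e-05, the smallest that 100000 permutations within groups could give, adjusted p = 0.00058 over 58 relations). The correlation was 0.77 in the 13 libraries with azacitidine and 0.80 in the 14 without it. It was 0.71 without the 2 libraries farthest from the median of Rrm2, and 0.56 after removal of the means of run and group (permutation p = 0.038, not adjusted). Rrm1 gave r = 0.28 and rho = 0.24 with the same list (permutation p = 0.14 and 0.23, adjusted p = 0.50 and 0.53). The S phase list itself had 2 called genes of 24, as higher, and a median log2 fold change of -0.02. Its summed level was 799 to 1127 CPM with azacitidine and 795 to 982 CPM without it. Rrm2 and Cda ran in opposite directions, with r = -0.76 and rho = -0.72 in the 27 libraries (permutation p = 3e-05 and 0.00014, adjusted p = 0.00087 and 0.0041). This relation was -0.41 with azacitidine and -0.90 without it. It was -0.715 without the 2 libraries farthest from the median of Cda. After removal of the means of run and group it was -0.38 (permutation p = 0.12, not adjusted), weaker and of the same sign. Among the 58 relations computed these 2 had an adjusted Pearson p under 0.05. The permutations behind it moved libraries between runs, although libraries of a run resembled each other. With permutations inside run and group p was 0.12 for Rrm2 and Cda, so their relation was not shown within runs. Of all 58 relations the smallest p of this kind belonged to Slc29a2 with Dctd (r = 0.62, permutation p = 0.0007). Slc29a1 with Dctd came next (r = 0.52, permutation p = 0.0031). Neither p was adjusted. After removal of group means alone, the adjusted permutation p of these relations was 0.13 and 0.39.

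The promoter windows of both subunit genes are shown so that the regulatory sequences of partners in 1 enzyme can be compared (RefSeq, GRCm38.p6). The Rrm2 window (chr12:24708004-24708303, plus strand) held 40 CpGs, more than 96.1% of all windows, and the Rrm1 window (chr7:102441445-102441744, plus strand) held 9, more than 54.2%. CpGs are in capitals. The motif CCAAT, searched on both strands, occurred 2 times in the Rrm1 window and 1 time in that of Rrm2, and was in 37.4% of all windows. The motif TTCCCGCC, a form of the E2F site, was in the Rrm1 window, not in that of Rrm2, and in 2.2% of all windows. A match describes the letters and is not evidence of binding.
Rrm1: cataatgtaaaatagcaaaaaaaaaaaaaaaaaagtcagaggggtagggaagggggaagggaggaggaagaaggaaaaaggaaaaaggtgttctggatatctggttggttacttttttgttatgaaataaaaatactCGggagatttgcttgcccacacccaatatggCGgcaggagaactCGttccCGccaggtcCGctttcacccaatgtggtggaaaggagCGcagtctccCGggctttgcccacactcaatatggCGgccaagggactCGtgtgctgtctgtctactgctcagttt
Rrm2: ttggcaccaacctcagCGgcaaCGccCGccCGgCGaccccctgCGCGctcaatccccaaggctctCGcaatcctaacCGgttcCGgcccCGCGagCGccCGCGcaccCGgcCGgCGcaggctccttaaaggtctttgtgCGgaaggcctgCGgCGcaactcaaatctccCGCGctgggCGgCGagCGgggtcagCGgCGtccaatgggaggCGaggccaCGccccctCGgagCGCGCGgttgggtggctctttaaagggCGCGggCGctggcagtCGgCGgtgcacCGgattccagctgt

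Samhd1 encodes a triphosphohydrolase that cleaves deoxynucleoside triphosphates, among them that of decitabine (chromosome 2, 157097533 to 157135265). It had 20.7, 25.8 and 43.3 CPM in the lowest, median and highest library with azacitidine and 19.1, 24.4 and 32.8 CPM without it. There were 4 libraries with azacitidine above the highest of the others. The log2 fold change of 0.22 (SE 0.09, 95% interval 0.03 to 0.41) did not pass the test (edgeR, p = 0.0258, adjusted p = 0.202). Samhd1 averaged 36.1 ± 5.15 CPM with azacitidine and 28.7 ± 2.96 CPM without it in numbers 1 to 4, and 22.8 ± 1.59 and 23.6 ± 3.4 CPM in numbers 9 to 12 (SD, n = 4 libraries each). Without the 5 libraries that stood apart the log2 fold change was 0.12 (edgeR, adjusted p = 0.55), and with a term for the run it was 0.21 and called (edgeR, adjusted p = 0.044). Sums over runs with that term gave 0.22 and no call (edgeR, adjusted p = 0.30). Among 20 tested interferon-stimulated genes 19 rose and 0 fell (edgeR), with a median log2 fold change of 1.31, and their summed level was 636 to 2135 CPM with azacitidine and 357 to 754 CPM without it. In the 27 libraries Samhd1 and the mean of that list gave r = 0.06 and rho = 0.05 (permutation p = 0.78 and 0.82, adjusted p = 0.84 and 0.95), with 0.78 in the 13 libraries with azacitidine and -0.52 in the 14 without it. The difference between the values of the 2 groups was not tested. Over all 32 libraries, with the 5 that stood apart, r was 0.36 and was not tested. After removal of the means of run and group in the 27 it was 0.36 (permutation p = 0.16, not adjusted).

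**Figure D4:**
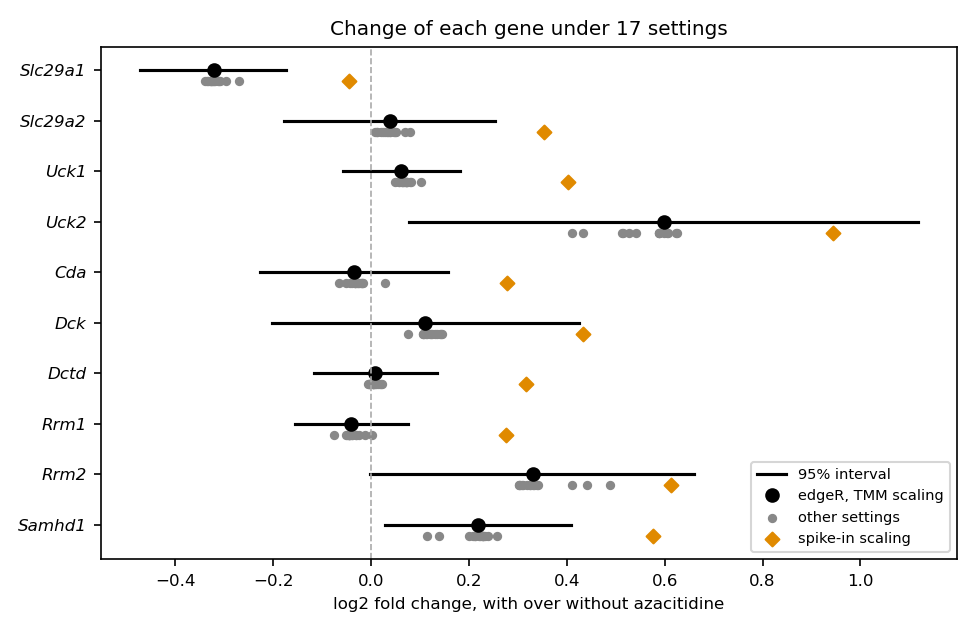
Log2 fold change, with over without azacitidine, of the 10 genes: black points with 95% intervals are the edgeR test with TMM scaling, grey points are other settings and orange diamonds are spike-in scaling. Slc29a1 lies below 0 in all of them, between -0.34 and -0.05, and spike-in scaling moves every gene upward.

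In the order of their levels, the transcripts of Slc29a1 and Cda came first with means of 104.5 and 86.1 CPM over all 32 libraries, and Slc29a1 exceeded Cda in 11 of 16 libraries with azacitidine and 14 of 16 without it. Uck1, Dctd and Rrm1 had 64.7, 63.8 and 60.8 CPM and did not differ beyond their spread, since Uck1 exceeded Dctd in 19 of 32 libraries and Dctd exceeded Rrm1 in 19. Rrm1 exceeded Rrm2, at 32.7 CPM, in all 32 libraries. Rrm2 exceeded Samhd1, at 26.4 CPM, in 12 of 16 libraries with azacitidine and 7 of 16 without it, and Slc29a2 followed at 19.6 CPM. Uck2 at 8.87 and Dck at 7.50 CPM were lowest, and Uck2 was the higher in 15 of 32 libraries. The difference Dck minus Uck2 was -0.29 ± 0.89 on the log2 CPM scale with azacitidine and 0.15 ± 1.04 without it (SD).

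Genes of the neighbouring pathways gave 2 calls among 39 tested, as higher with azacitidine, a share near the 5.65% of all tested genes. Both were in the list of pyrimidine breakdown. Upp1, uridine phosphorylase (ENSMUSG00000020407, chromosome 11, 9118103 to 9136170), had 15.8, 29.4 and 37.1 CPM in the lowest, median and highest library with azacitidine, against 10.8, 16.7 and 23.4 CPM without it. Of the 16 libraries with azacitidine 14 lay above all others. It rose by 0.83 on the log2 scale (SE 0.12, edgeR, adjusted p = 3.19e-06), and by between 0.62 and 1.01 as the ratio of mean CPM in the 4 runs. Dpys, dihydropyrimidinase, which opens the ring of reduced uracil and thymine (chromosome 15, 39768487 to 39857470), had 24.1, 28.6 and 35.1 CPM with azacitidine against 13.7, 18.3 and 27.0 CPM without it. It rose by 0.67 (SE 0.09, edgeR, adjusted p = 1.04e-06). The ratio of means was 0.16 on the log2 scale in numbers 9 to 12 and between 0.75 and 0.91 in the other runs. With sums over runs Upp1 was called (0.82, edgeR, adjusted p = 0.048) and Dpys, at the same 0.67, was not (adjusted p = 0.070). With a run term added to the sums Dpys was called (0.68, edgeR, adjusted p = 0.008). Other members of the list were too low to test. Dpyd, the enzyme of the step before Dpys, had 12 UMIs with azacitidine and 6 without it, Upb1, which acts after Dpys, had 3 and 1, Tymp, thymidine phosphorylase, had 6 and 5, and Upp2, a second uridine phosphorylase, had 147 and 80. Tyms, thymidylate synthase, stood at 99.8 ± 14.4 CPM with azacitidine and 108 ± 8.41 CPM without it and did not pass the test (edgeR, adjusted p = 0.379), and spike-in scaling turned the sign of its difference. Among 5 tested genes of de novo pyrimidine synthesis edgeR called 0, and 0 had p under 0.05 before adjustment. Neither DESeq2 nor limma-voom called any (0 each).

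**Figure D5:**
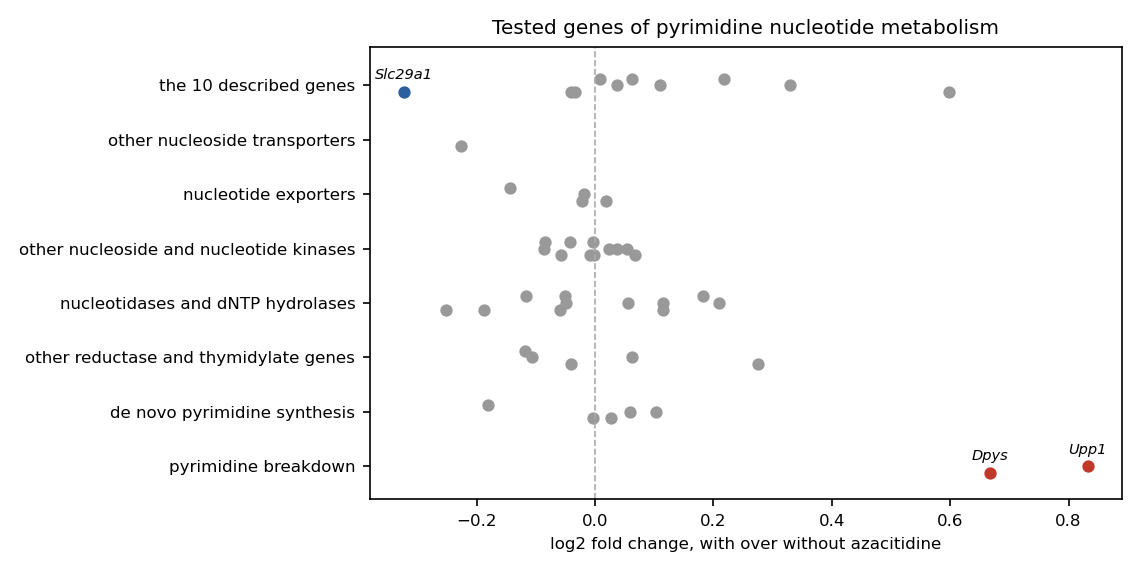
Log2 fold change, with over without azacitidine, of the tested genes among the 10 described genes and 7 further lists; blue marks a called decrease, red a called increase and grey no call. Slc29a1 at -0.32, Dpys at 0.67 and Upp1 at 0.83 are the called genes, and most others lie within 0.25 of no change.

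For each of the 7 genes that had a mean of at least 20 CPM, the 3 tested genes whose log2 CPM followed it most closely were found over the 32 libraries after removal of group means. These are descriptions, since each is the best of all tested genes and libraries of a run resemble each other. The 5 libraries that stood apart were kept here, unlike in the tested correlations, and their part in these values was not tested. The closest to Slc29a1 were Slc19a1, which encodes the reduced folate carrier (r = 0.68), Rbm38 (0.67) and Cnpy3 (0.67). The closest to Uck1 were Hmgn1, which encodes a nucleosome-binding protein (0.71), Tomm22 (0.69) and Ccm2 (0.69). The closest to Cda were the pseudogene Rps16-ps2 (0.84), Sprr1a (0.82) and the glycolysis gene Tpi1 (0.81). The closest to Dctd were Mydgf (0.72), Rrp36 (0.71) and the centromere gene Cenpm (0.70). The closest to Rrm1 were Hnrnpu (0.61), Bzw1 and Pafah1b1 (0.585 each). The closest to Rrm2 were Asf1b, which encodes a histone chaperone (0.83), Washc5 (0.80) and the splicing factor gene Sf3b3 (0.79). The closest to Samhd1 were Vegfd, 1110032A03Rik and the chemokine gene Cx3cl1 (0.75 each).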

How the data were processed

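Cells of EL08-1D2 gave 16 libraries with and 16 without azacitidine, grouped by the treatment label. Per the labels' protocols, column-purified RNA was turned into barcoded, pooled cDNA with UMIs and a tagmentation library. STAR 2.4.0, bedtools 2.17.0 and mm10 are named in the submitters' processing notes; annotation, strand and the collapsing of UMIs are not given in the sources used here. The deposited values were whole-number counts of UMIs per gene, with no normalization by the authors. The 68 spike-in RNAs (0.106% of UMIs) stayed out of library sizes and tests. Symbols matched 21506 of 21829 genes.

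The test was edgeR 4.0.16 (quasi-likelihood, robust, TMM, default expression filter by group, two-sided, Benjamini-Hochberg over 9344 genes, threshold 0.05). The filter kept 98.8% of UMIs. Log2 CPM used an offset of 0.5 UMI. Intervals (95%) come from the test's own p. The interaction of run and drug was tested in the same way. Correlations across libraries were tested by 100000 permutations within groups and adjusted over 58 relations. DESeq2 1.42.0 and limma 3.58.1 (voom) were other tests among 16 alternatives. R 4.3.3 and Python 3.11.15 were used. The test was also run on simulated counts, but these held no likeness within runs, so that check does not cover it. Promoter windows are RefSeq, GRCm38.p6.

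The 10 genes, the lists and the alternatives were chosen with earlier results of these data known. The rule for names took the 10 genes, called genes of 7 pathway lists (up to 4 per list), Rrm2b, Cmpk2 and Tyms, and 3 correlated genes for each of the 10 with at least 20 CPM. Other genes named are markers or list examples, and the examples were chosen after their values were seen. An item of the lists is not reported here.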

Additional observations from a re-analysis of the deposited data

How the results depend on the processing

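Against 528 of 9344 genes called by edgeR (341 higher, 187 lower), 897 of 9344 were called with the replicate number as a block and 993 of 9344 with a run term. The number of tested genes changed in other settings. With no filter on low counts 860 of 21822 were called, and after thinning to the smallest library 254 of 7242. Limma-voom called 174 of 9344 once a correlation within runs was estimated, and sums over runs gave 108 of 12281 (105 higher, 3 lower). Spike-in scaling gave 354 higher and 1 lower, and library totals alone 360 higher and 152 lower. The other alternatives (DESeq2, limma-voom, DESeq2 size factors, a minimum mean of 5 UMIs, sums with a run term, and leaving out the smallest library of each group, the 5 libraries that stood apart or numbers 1 to 4) gave 400 to 641. Between 9158 and 12281 genes were tested in them. Of the 10 genes 1 was called by edgeR, 3 with the replicate block, 4 with the run term, and 0 with limma-voom and correlation within runs, with sums over runs, or after thinning, where Uck2 and Dck fell below the filter. The interaction of run and drug had 282 calls, and 687 without a filter, where 21822 genes were tested. Thinning leaves fewer counts and sums leave fewer samples, but the same sums gave 108 calls without a run term and 400 with it. The cause of the differences between settings was not tested.

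The labels do not say that replicate numbers pair libraries, so the replicate block was kept as an alternative. Over 16 pairs the correlation of deviations ran from -0.28 to 0.82 (median 0.18), with 12 above 0.1. These values do not settle whether the numbers pair libraries, and the calls among the 10 genes depend on this choice. As a hint from the data, 10 of 32 libraries correlated best with their own number. With the block, Slc29a1 had -0.33 (edgeR, adjusted p = 1.5e-05), Uck2 0.52 (0.029) and Rrm2 0.30 (0.042).

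Slc29a1 was lower in 16 of 16 alternatives and called in 12. Signs turned for Cda with spike-in scaling (0.277) and thinning (0.029), for Rrm1 with spike-in scaling (0.275) and without numbers 1 to 4 (0.002), and for Rrm2b (0.181) and Tyms (0.224) with spike-in scaling. Dctd turned to -0.004 after thinning, -0.003 without numbers 1 to 4, -0.006 with sums over runs and -0.005 with sums and a run term. Depth limits Uck2 and Dck most, with as few as 3 and 6 UMIs in a library.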
